A study of Mus musculus with 30 samples.

Results

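Mt1 and Mt2, the metallothionein genes that most mouse tissues express, were described in 30 K-RAS-induced mouse lung tumours profiled by RNA sequencing. They were chosen by name, as 2 of the 23284 gene rows of the deposited table of normalized read counts. The labels give 3 groups of mice, which received vitamin E, received NAC or were untreated, with 5 animals each and 2 tumours per animal, all K-RAS-induced lung tumours and with no strain, age or K-RAS allele given. The columns of the table are named by a letter (A, B or C) and 2 digits, and no source used here says which letter is which treatment, so the letters carry no treatment name here. A letter with its first digit (A1 to C5) was read as an animal, and the second digit (0 or 1) as one of its sister tumours. The labels state neither reading, although 15 animals with 2 tumours each is the layout they describe.

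Metallothioneins are small cysteine-rich proteins that bind zinc and copper ions in thiolate clusters, buffer free zinc, hold cadmium and react with oxidants. Their genes lie side by side in the mouse. Transcription is switched on by zinc through the metal-responsive factor MTF1, which binds metal response elements in their promoters, and also by glucocorticoids, by interleukin-6 in the acute phase and by oxidative stress. In lung, cadmium and zinc exposure and inflammation are known inducers.

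Below are the promoter windows of both genes, from 250 bases before to 50 after the start in the RefSeq table (build GRCm38.p6, chromosome 8, plus strand). They are shown since the pair moved together in these tumours. The Mt2 window is chr8:94172368-94172667 and the Mt1 window is chr8:94178839-94179138. Capitals mark each match, on either strand, to the core of the metal response element, searched as TGCACNC or TGCGCNC.
Mt2: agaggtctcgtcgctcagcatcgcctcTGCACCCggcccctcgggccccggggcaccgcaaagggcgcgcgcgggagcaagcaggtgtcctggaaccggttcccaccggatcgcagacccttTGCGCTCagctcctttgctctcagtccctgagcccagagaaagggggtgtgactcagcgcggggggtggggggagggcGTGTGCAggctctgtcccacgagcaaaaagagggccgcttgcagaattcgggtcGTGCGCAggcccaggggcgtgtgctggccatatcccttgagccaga
Mt1: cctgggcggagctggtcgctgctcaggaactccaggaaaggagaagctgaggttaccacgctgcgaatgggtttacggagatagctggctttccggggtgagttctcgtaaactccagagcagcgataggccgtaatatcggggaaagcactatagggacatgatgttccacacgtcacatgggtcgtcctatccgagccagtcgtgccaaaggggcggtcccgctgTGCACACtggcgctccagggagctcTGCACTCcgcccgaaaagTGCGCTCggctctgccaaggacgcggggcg
The Mt2 window held 4 matches and the Mt1 window 3. Of the 32817 promoter windows in the table, 25.7% held at least 1 match, 1.97% held at least 3 and 0.518% held at least 4. A core of the antioxidant response element, searched on both strands as TGACNNNGC, occurred 1 time in the Mt2 window and 0 times in the Mt1 window, against 12.4% of all windows. Counted in bases from the start, the Mt1 matches to the metal response element core began at -23, 2 and 20. Those of Mt2 began at -223, -128, -50 and 4. A TATA box, searched as TATAAA, occurred 0 times in either window, where 13.6% of all windows held at least 1. These are matches of letters in these windows only, and sequence beyond the windows was not searched. The submitters' processing notes name another build, mm9, for the tumour data.

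Each library held between 18322631 and 24408946 reads in genes, with a median of 21596540, after the normalized counts were turned back into whole reads. At this depth Mt1 had at least 2795 reads and Mt2 at least 1003 reads in every tumour, so counting error (1 SD, counting only) was at most 1.89% and 3.16%. Values below are the authors' normalized counts, or log2(value + 1) where so named. Markers of alveolar type 2 cells, a usual cell of origin of such tumours, summed to 1201566 to 2788212 normalized counts per tumour, and none of them was at 0. The column names carry 12 index sequences in 3 successive runs of different indices, the first with all A animals and B1, the second with B2 to B5, C1 and C2, and the third with C3 to C5. A GC tilt, the median log2 deviation of the 25% of genes with the highest GC content minus that of the 25% with the lowest, ran from -0.142 to 0.221 over the libraries. It is given beside the results it moved with.

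Mt1 was abundant in every tumour and varied 3.42-fold over them, between 3122 normalized counts in tumour C30 and 10688 in tumour B10. Mt2 varied more, 5.67-fold, between 1083 normalized counts in A11 and 6134 in B10. Mt1 was the higher of the pair in all 30 tumours, by 1.74 to 3.2 times with a median of 2.63. Per length of transcript (549 and 511 bases in GENCODE), the ratio of Mt1 to Mt2 had a median of 2.45 and a range of 1.62 to 2.98. The lowest ratio was that of B10, the tumour with the most of either transcript, and the highest that of A11, the tumour with the least Mt2. These transcripts shared no identical stretch of 25 bases. Alignments with mismatches and copies elsewhere in the genome were not looked at, so how reads were assigned between the genes was not tested. The other genes of the cluster were near absent. Mt3, known mainly from brain, had a median of 3.6 normalized counts, was at 0 in 3 tumours and reached 68.01 in A11. Mt4, known from stratified epithelium, was at 0 in 27 of the 30 tumours, and stood at 1.11 in B21, 21.1 in C11 and 264.6 in C21.

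**Figure D1:**
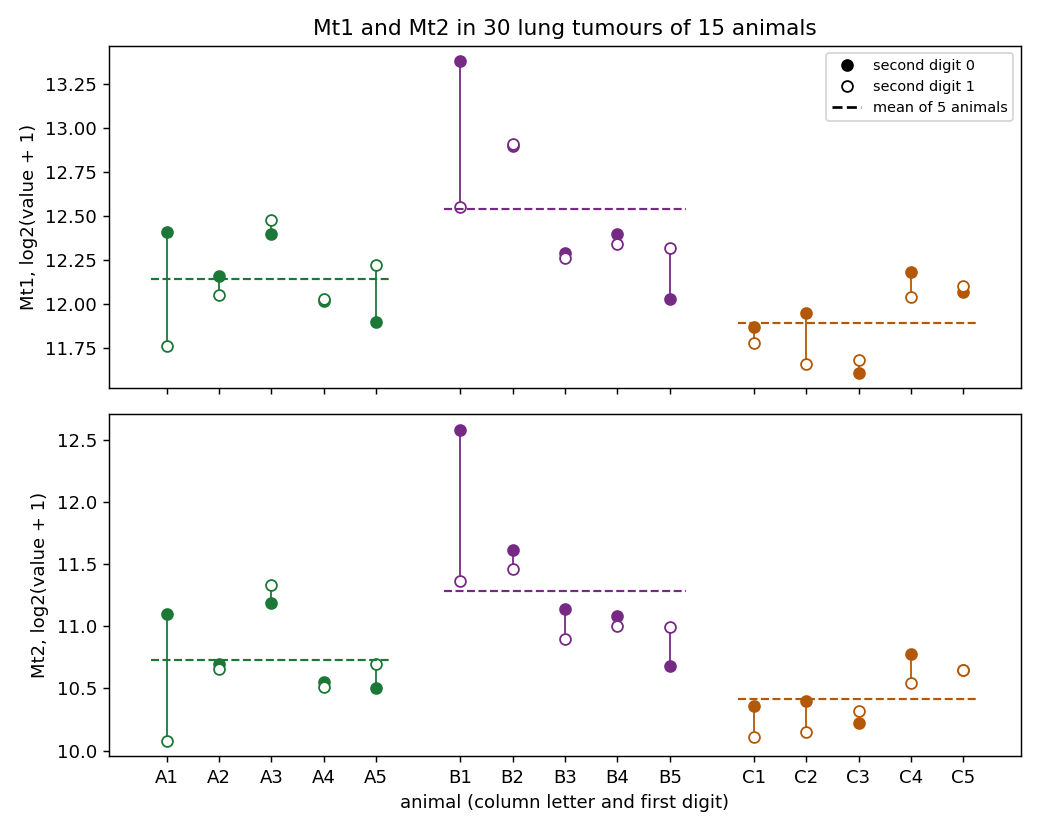
Log2(value + 1) of Mt1 (top) and Mt2 (bottom) in each tumour, by animal and column letter; filled points have second digit 0, open points second digit 1, and a line joins sister tumours. Letter B holds the highest animals, B1 and B2, letter C the lowest, and the widest sister pairs are A1 and B1.

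Mt1 and Mt2 varied together both between and within animals. Over the 15 animals, Pearson's r of the log2 levels was 0.978 and Spearman's rho 0.975 (2-sided permutation test with 100000 resamples, p = 1e-05 each, the smallest they can give; adjusted p over the 7 relations computed, 2.33e-05). Without B1 and B2, the animals farthest from the median of Mt1, r was 0.966, and with each letter's mean removed it was 0.949 (adjusted p = 2.33e-05, permutation test, 15 animals). Within animals, the difference between sister tumours (digit 0 minus digit 1) in Mt2 followed that in Mt1 with r = 0.967 and rho = 0.893 (permutation p = 1e-05 and 5e-05; adjusted p for r, 2.33e-05). The differences had the same sign in 13 of 15 animals. Without A1 and B1, whose sister tumours were the least alike, r was 0.865 over the remaining animals.

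**Figure D2:**
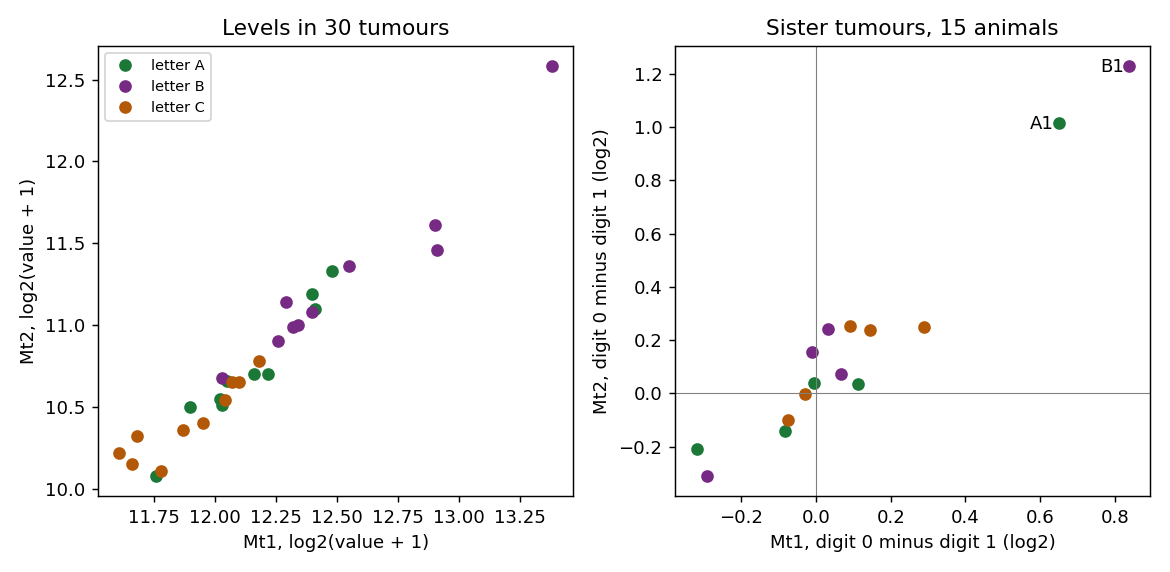
Left, Mt2 against Mt1 in the 30 tumours, log2(value + 1), by column letter. Right, the difference between sister tumours (digit 0 minus digit 1) in Mt2 against that in Mt1 for the 15 animals. B10 lies alone at the top of the left panel, and A1 and B1 stand far from the other animals in the right one.

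With all animals, Mt2 changed by more than 1 log2 unit per log2 unit of Mt1, in slopes tested against 0 and not against 1. In a limma fit across all genes with the log2 level of Mt1 as covariate, Mt2 changed by 1.25 log2 units per log2 unit of Mt1 between animals (SE 0.12, adjusted p = 7.55e-04) and by 1.38 between sister tumours (SE 0.10, adjusted p = 8.68e-07). Without A1 and B1 the slope between sister tumours was 0.96 (SE 0.19) and the adjusted p was 0.194.

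Sister tumours were mostly close in Mt1. In 10 of 15 animals they differed by less than 0.16 log2 units. In the A1 pair, Mt1 had 5443 normalized counts in A10 and 3466 in A11, a 1.57-fold difference. In the B1 pair, Mt1 had 10688 normalized counts in B10 and 5979 in B11, a 1.79-fold difference. Mt2 in these animals had 2187 normalized counts in A10 and 1083 in A11, and 6134 in B10 and 2619 in B11, which are 2.02-fold and 2.34-fold differences. The pairs also differed elsewhere. Markers of heart muscle (Myh6, Actc1 and Tnnt2) summed to 3391 normalized counts in A10 and 50038 in A11, where the other libraries stayed at or below 3702, and alveolar type 2 markers summed to 2187746 in A10 and 1201566 in A11. Their part in the Mt1 and Mt2 values was not tested. In B10 and B11 the heart muscle markers summed to 883.9 and 809.2, and the GC tilt of B10, 0.221, was the highest of all libraries.

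With letter means removed, animals accounted for 47.1% of the variance of Mt1 and 40.7% of that of Mt2. The SD between animals was 0.21 log2 units for Mt1, against 0.22 between sister tumours, and for Mt2 it was 0.26 against 0.31. A 1-sided permutation test that dealt the tumours of a letter to its animals at random gave p = 0.0527 for Mt1 and p = 0.0448 for Mt2. Both genes were ordinary in this respect, since the median share over 14539 genes was 36.3% with quartiles of 16.8% and 53.2%. Without A1 the test passed for both genes, and without B1 too, whereas leaving out 1 animal at a time ended the call for Mt2 with each of 8 animals.

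Tumours of letter B had the most Mt1 and Mt2, those of letter A were intermediate and those of letter C had the least. Mt1 ran from 3466 to 5720 normalized counts in the 10 A tumours with a median of 4400, from 4183 to 10688 with a median of 5290 in the B tumours, and from 3122 to 4652 with a median of 3852 in the C tumours. Mt2 ran from 1083 to 2571 with a median of 1642 in the A tumours, from 1641 to 6134 with a median of 2207 in the B tumours, and from 1101 to 1763 with a median of 1330 in the C tumours. Single tumours of neighbouring letters overlapped. As means of their sister tumours, the A animals had log2 levels of Mt1 of 12.09, 12.10, 12.44, 12.03 and 12.06 for A1 to A5. The B animals had 12.96, 12.90, 12.28, 12.37 and 12.18. The C animals had 11.82, 11.81, 11.65, 12.11 and 12.08. All 5 B animals were above all 5 C animals, while A animals overlapped with both. The share of all genes that separate B and C animals in this way is not given here.

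The difference between B and C was the 1 letter difference that passed the test for these genes. Mt1 averaged 12.54 ± 0.37 in B animals and 11.89 ± 0.20 in C animals (log2, SD, n = 5 each), 0.64 log2 units higher in B or 1.56-fold (SE 0.15, limma adjusted p = 0.01 over all genes). Mt2 averaged 11.28 ± 0.46 in B animals and 10.42 ± 0.22 in C animals, 0.86 log2 units higher in B or 1.82-fold (SE 0.19, limma adjusted p = 0.00886). An exact 2-sided permutation test over animals gave p = 0.00794 for either gene, the smallest that 252 arrangements allow. Calls were common in this contrast. Of the 14539 genes tested, 17% were called between B and C, 8.26% as higher in B and 8.71% as lower. Leaving out any 1 of the 15 animals kept both calls, with adjusted p from 0.00788 to 0.0279 for Mt1 and from 0.00583 to 0.0272 for Mt2. With the tumours of second digit 0 alone the Mt1 call was lost (limma adjusted p = 0.0586), and with the GC tilt as a covariate both calls were (limma adjusted p = 0.218 and 0.192).

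Letter A did not pass the test against either of the others with all animals and no covariate. Mt1 averaged 12.14 ± 0.17 in A animals, and stood 0.40 log2 units below B (A minus B -0.40, SE 0.15, limma adjusted p = 0.0807; exact permutation p = 0.0635) and 0.25 above C (SE 0.15, limma adjusted p = 0.185; exact permutation p = 0.103). Mt2 averaged 10.73 ± 0.30 in A animals (A minus B -0.55, SE 0.19, limma adjusted p = 0.0666; A minus C 0.31, SE 0.19, limma adjusted p = 0.201). Without A3, or without B5, the difference of A from B passed the test for both genes, with limma adjusted p down to 0.0342 for Mt1 and 0.0185 for Mt2. With the GC tilt as a covariate A also fell below B past the test, with limma adjusted p = 0.0438 for Mt1 and 0.0437 for Mt2. The difference of A from C turned sign with the tilt, to -0.05 in Mt1 and -0.04 in Mt2, and did not pass the test. With the run of indices as a covariate, A minus B was -0.82 in Mt1 and -1.24 in Mt2, and A minus C was -0.21 and -0.38. The A animals share their run with B1 alone, the B animal with the most of both transcripts. The differences of A with the run therefore rest on B1 and are given without a test. With no covariate, 15.3% of all genes were called between A and B, 44.8% between A and C and 17% between B and C.

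The GC tilt moved with the letters as well. It averaged 0.0288 ± 0.0712 in B animals and -0.0614 ± 0.0347 in C animals, with no overlap (exact permutation p = 0.00794, n = 5 each), and 0.0234 ± 0.0302 in A animals. Over the 15 animals it correlated with Mt1 (r = 0.746, adjusted p = 0.00303; rho = 0.5, permutation p = 0.0599) and with Mt2 (r = 0.706, adjusted p = 0.0051; rho = 0.532, permutation p = 0.0436). Without B1 and C3, the animals farthest from the median tilt, these r were 0.456 and 0.388. Leaving them out also narrows the range of the tilt, so how far the relation rests on them cannot be read from this. Between sister tumours r was 0.569 for Mt1 (adjusted p = 0.029, permutation test) and 0.473 for Mt2 (adjusted p = 0.0752, permutation test). With the tilt as a covariate, B exceeded C by 0.32 log2 units in Mt1 (limma adjusted p = 0.218) and by 0.48 in Mt2 (limma adjusted p = 0.192), and neither was called. Tilt and letter cannot be told apart between B and C. With the run of indices as a covariate the difference was 0.62 in Mt1 (limma adjusted p = 0.0496) and 0.85 in Mt2 (limma adjusted p = 0.0225). B and C animals share the second run only, so these differences are those of its 4 B and 2 C animals. The same 4 B animals all lay above these 2 C animals in both genes (exact permutation p = 0.0667, the smallest that 15 arrangements allow).

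**Figure D3:**
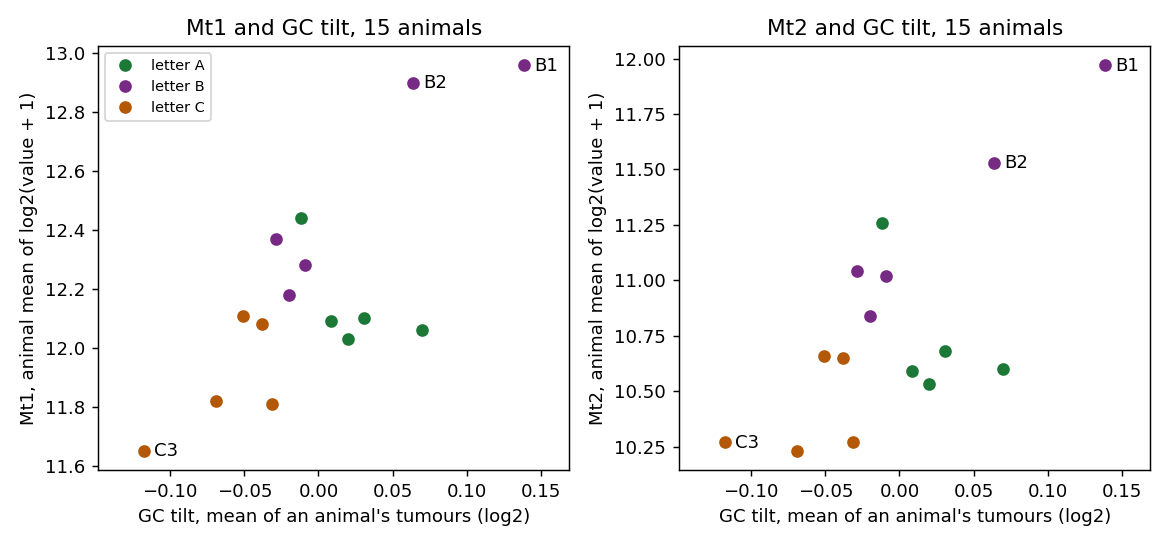
Animal means of log2(value + 1) of Mt1 (left) and Mt2 (right) against the mean GC tilt of the animal's libraries (log2), by column letter. B1 lies at the upper right and C3 at the lower left, and the C animals all have a tilt below 0.

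Bulk tumours mix cell types, and fewer cells of a type and less RNA per cell cannot be told apart in them. Between B and C, none of the 5 alveolar type 2 markers was called. Summed macrophage markers ran from 21776 to 79100 normalized counts in B tumours, with a median of 38871, and from 29063 to 81022 in C tumours, with a median of 57486, and 1 of 6, Csf1r, was called as lower in B (-0.31, SE 0.09, limma adjusted p = 0.0289), beside 8.71% of all genes. Of the 5 neutrophil markers, S100a8 was called as higher in B (1.02, SE 0.31, limma adjusted p = 0.034), beside 8.26% of all genes. The other neutrophil markers were not called and went both ways. S100a9 differed by 0.90, Csf3r by 0.30 and Cxcr2 by 0.30, while Retnlg was lower in B (-0.65, SE 0.23, limma adjusted p = 0.0629). Summed neutrophil markers ran from 346.8 to 869.3 normalized counts in B tumours, with a median of 515.4, and from 372.4 to 553 in C tumours, with a median of 426. Their part in the Mt1 and Mt2 difference was not tested.

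Of the 20 other metal handling genes measured with enough reads, 1 was higher in B than in C and 3 were lower, beside 8.26% and 8.71% of all genes. The higher one was Atp7b, a copper-exporting ATPase (0.71 log2 units, SE 0.19, limma adjusted p = 0.0221). The lower ones were importers of zinc and other divalent metals, namely Slc39a14 (-0.53, SE 0.11, limma adjusted p = 0.00715), Slc39a8 (-0.32, SE 0.06, limma adjusted p = 0.0023) and Slc39a6 (-0.29, SE 0.07, limma adjusted p = 0.00971). Slc39a8 ran from 5526 to 8109 normalized counts in B tumours, with a median of 7210, and from 8244 to 9348 in C tumours, with a median of 8841. Slc39a14 ran from 169 to 252.8 normalized counts in B tumours and from 230.1 to 387.2 in C tumours, which overlap. Letter A, whose Mt1 and Mt2 did not differ from C past the test, was also lower than C in Slc39a14 (-0.69, SE 0.11, limma adjusted p = 4.29e-04) and Slc39a8 (-0.35, SE 0.06, limma adjusted p = 3.89e-04). As lower in A than in C, 21.9% of all genes were called. Slc39a6 was not (-0.15, limma adjusted p = 0.0833), and none of these importers was called between A and B. Mtf1, which encodes the zinc-sensing factor that drives Mt1 and Mt2, had a B minus C difference of -0.19 (SE 0.07, limma adjusted p = 0.0782). Slc30a1, the plasma-membrane zinc exporter that MTF1 also drives, differed by 0.10 (SE 0.05, limma adjusted p = 0.196). Slc30a1 was higher in A than in B (0.17, SE 0.05, limma adjusted p = 0.0399) and than in C (0.27, SE 0.05, limma adjusted p = 0.00105). This stands beside 8.78% and 22.9% of all genes. Over the 30 tumours the mean of the correlations with Mt1 and Mt2 was -0.559 for Mtf1 and 0.0628 for Slc30a1, as a description.

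Between sister tumours, a few metal handling genes went with Mt1. In the limma fit with the animal as a block, 3 of 20 rose with Mt1 and 1 fell, beside 4.42% of all 14538 genes that rose and 1.04% that fell. With Mt2 as covariate 4 rose and 1 fell, beside 4.26% and 0.963% of all genes. Atox1, a copper chaperone, had 3085 normalized counts in B10 and 1625 in B11, and 1431 in A10 and 1160 in A11, and it rose by 0.87 log2 units per log2 unit of Mt1 (SE 0.16, adjusted p = 0.00572). Sod1, the copper and zinc superoxide dismutase, rose by 0.75 (SE 0.16, adjusted p = 0.0106). Slc39a10, a zinc importer, rose by 0.49 (SE 0.09, adjusted p = 0.00489), and Slc30a9, a zinc transporter linked to mitochondria, fell by 0.30 on the log2 scale (SE 0.07, adjusted p = 0.0156). Slc40a1, the iron exporter ferroportin, had 987.4 normalized counts in B10 and 364.0 in B11 and rose with Mt2 (0.86, SE 0.24, adjusted p = 0.0394).

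These sister-tumour calls rest on a pair of animals. Without both A1 and B1, limma called 0 of 14477 genes with either covariate, although 1665 with Mt1 and 1519 with Mt2 had an unadjusted p below 0.05. Without A1 alone 396 genes rose and 35 fell with Mt1, and 411 rose and 31 fell with Mt2. Without B1 alone 371 rose and 410 fell with Mt1, and 516 rose and 512 fell with Mt2, where with all animals 642 rose and 151 fell with Mt1, and 620 rose and 140 fell with Mt2. With the GC tilt as a covariate 90 genes were called with Mt1, among the metal handling genes Slc39a10, and 217 with Mt2. Without A1 and B1 the slope on Mt1 was 0.52 for Slc39a10 (SE 0.20), 0.91 for Atox1 (SE 0.33) and 0.19 for Sod1 (SE 0.28).

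**Figure D4:**
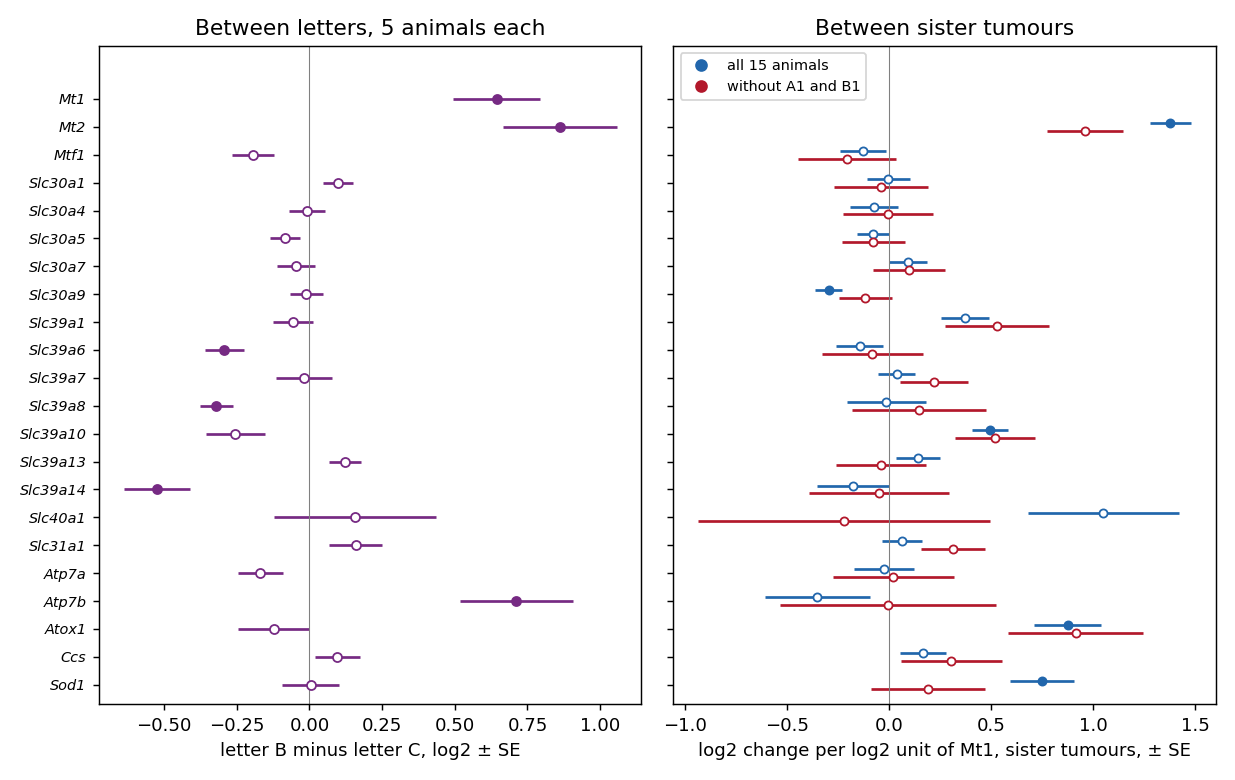
Left, letter B minus letter C in log2(value + 1) for Mt1, Mt2 and 20 metal handling genes, ± SE. Right, the change of each gene per log2 unit of Mt1 between sister tumours, ± SE, with all 15 animals and without A1 and B1; filled points passed an adjusted p of 0.05. In the left panel, which does not show letter A, Slc39a14, Slc39a8 and Slc39a6 lie left of 0 where Mt1 and Mt2 lie right. In the right panel no point is filled without A1 and B1.

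Cell cycle genes were the listed group with the most members that rose with Mt1 between sister tumours. Of 18, 8 rose with Mt1 and 11 with Mt2, beside 4.42% and 4.26% of all genes, and none fell, beside 1.04% and 0.963%. Their median slope on Mt1 was 0.64, against -0.01 over all genes. Cdc20, an activator of the anaphase-promoting complex, had 374.1 normalized counts in A10 and 218.1 in A11, and 598.1 in B10 and 353.1 in B11. It rose by 0.96 log2 units per log2 unit of Mt1 (SE 0.18, adjusted p = 0.00593). Plk1, a mitotic kinase, rose by 1.00 (SE 0.22, adjusted p = 0.0129). Mki67, Cdk1, Aurka, Birc5, Mcm2 and Tyms also rose with Mt1, and Ccnb1, Ccnb2 and Mcm3 with Mt2. With the GC tilt as a covariate 0 of 18 passed with Mt1 and 3 with Mt2, though 14 had an unadjusted p below 0.05 with Mt1, and the median slopes were 0.71 with Mt1 and 0.49 with Mt2, against 0.64 and 0.46 without the tilt. Of all 14538 genes in the fits with the tilt, 81 rose with Mt1 and 193 with Mt2, and 2418 had an unadjusted p below 0.05 with Mt1. Without A1 2 passed with Mt1, without B1 3, and without both 0, with a median slope of 0.47. Of all genes, 396 of 14479 rose with Mt1 without A1, and 371 of 14539 without B1. The mean cell cycle level and Mt1 differed in the same direction in 8 of the 15 sister pairs. Between animals none of the 18 was called with either gene.

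**Figure D5:**
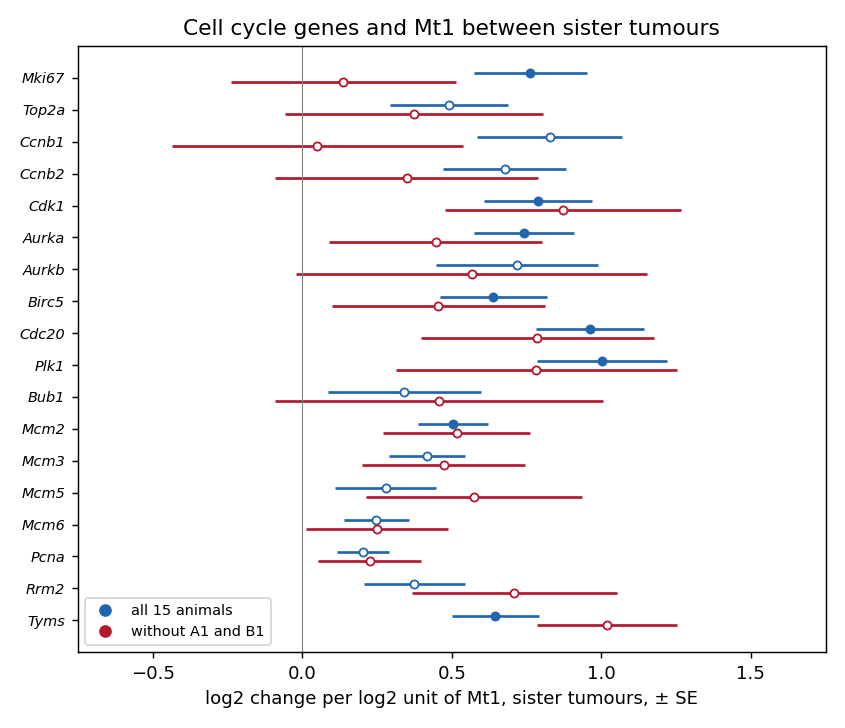
Change of 18 cell cycle genes per log2 unit of Mt1 between sister tumours, ± SE, with all 15 animals and without A1 and B1; filled points passed an adjusted p of 0.05. With all animals every slope is above 0 and 8 points are filled.

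The lists of the other inducing pathways were read against the same shares of all genes. In the sister-tumour fits none of 14 glucocorticoid response genes was called with either gene. Over the fits between animals and between sister tumours with either gene, the smallest p among them belonged to Klf9 and Cebpb, both transcription factors induced by glucocorticoids. Klf9 had a slope on Mt2 of -0.54 between animals (SE 0.17, limma adjusted p = 0.304), and Cebpb a slope on Mt1 of 0.42 between sister tumours (SE 0.14, limma adjusted p = 0.0801). Without B1, slopes on Mt1 between sister tumours passed the test for Klf9 (-0.51, limma adjusted p = 0.0222), Cebpb (0.72, limma adjusted p = 0.0223) and Pdk4 (-3.89, limma adjusted p = 0.00676), a kinase that inhibits pyruvate dehydrogenase, named after its values were seen. Of all 14539 genes in that fit, 371 rose and 410 fell. The fit keeps A11, whose heart muscle markers summed to 50038 normalized counts against 3391 in A10, and the part of that tissue in these slopes was not tested. Of 15 acute phase and interleukin-6 genes, Il6st, the shared signalling receptor gp130, fell by 0.47 on the log2 scale per log2 unit of Mt1 (SE 0.08, adjusted p = 0.00244). Of 21 NRF2 targets, Osgin1 (0.45, SE 0.09, adjusted p = 0.00754) and Gstm1 (1.19, SE 0.34, adjusted p = 0.0469) rose with Mt1. Gstm1, a glutathione transferase, had 9982 normalized counts in B10 and 2939 in B11, but 7262 in A10 and 6544 in A11. Between B and C, 4 of the 15 acute phase and interleukin-6 genes were lower and 1 was higher, beside 8.71% and 8.26% of all genes. Of the glucocorticoid response genes 2 were lower and 0 higher, and of the NRF2 targets 2 were lower and 2 higher.

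In the remaining lists, Ldha rose with Mt1 among 17 hypoxia and glycolysis genes (0.36, SE 0.09, adjusted p = 0.0223) and Hspa8 among 13 heat shock genes (0.45, SE 0.08, adjusted p = 0.00565). None of 13 amino-acid and ER stress genes was called with Mt1 or Mt2. The smallest p, between animals, belonged to Phgdh and Psat1, enzymes of serine synthesis (slopes on Mt1 of 0.65, SE 0.19, and 0.51, SE 0.15, both with adjusted p = 0.288). Among 16 p53 targets, Bbc3, the cell death gene PUMA, rose by 0.62 (SE 0.11, adjusted p = 0.00476) and Sesn1 fell by 0.79 on the log2 scale (SE 0.17, adjusted p = 0.0105). Of 53 cell type markers in 13 lists, 1 was called, Sftpb with Mt2 (0.58, SE 0.16, adjusted p = 0.0386). The 3 heart muscle markers had a median slope of -3.03 on Mt1, each with an unadjusted p below 0.05, and the 4 B cell markers one of -1.32, 2 of them with such a p. Of all 14538 genes, 1318 had a negative slope on Mt1 with such a p. Without B1, limma called all 3 heart muscle markers as lower with either gene, with a median slope of -5.85 on Mt1, and 2 of 4 B cell markers with Mt1 and 4 of 4 with Mt2. In those fits 410 of all 14539 genes fell with Mt1 and 512 with Mt2. The part of these markers in the genes called without B1 was not tested. None of the sister-tumour calls with all animals remained without A1 and B1. Between B and C, 6 of the 13 amino-acid and ER stress genes were lower and 0 higher, beside 8.71% and 8.26% of all genes. In A, 8 of them were lower than in C, beside 21.9% of all genes. Of the hypoxia and glycolysis genes 3 were lower in B than in C and 4 higher, and of the p53 targets 2 were lower and 3 higher.

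Heat shock genes, the chaperones that HSF1 induces, correlated negatively with Mt1 and Mt2 over the 30 tumours, as a description. The mean of the correlations with Mt1 and Mt2 was negative for all 13, with a median of -0.513, against -0.0151 over all genes. Hspa1a, an inducible chaperone, ran from 72.13 to 187.9 normalized counts in B tumours and from 203.6 to 3162 in C tumours. In A tumours Hspa1a ran from 87.88 to 284.8 normalized counts. Of the 13, 8 were lower in B than in C, beside 8.71% of all genes. In A, 9 were lower than in C and 1 was higher, beside 21.9% and 22.9% of all genes. Mt1 and Mt2 did not pass the test between A and C. Between A and B, 1 heat shock gene was higher in A and 0 were lower, beside 8.78% and 6.49% of all genes. Between sister tumours the median slope of the list on Mt1 was 0.03.

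Between animals, with the letter in the model, nearly no gene could be tied to Mt1 or Mt2. With Mt1 as the covariate 1 gene was called, Mt2 itself, which is 0.00688% of genes, and 1760 had an unadjusted p below 0.05. With Mt2 as the covariate 2 were called, 0.0138%, namely Mt1 and Grina, a membrane protein gene (0.42 per log2 unit of Mt2, SE 0.06, adjusted p = 0.036). Grina had 4210 normalized counts in B10 and 2535 in B11, and between 1947 and 2768 in all A and C tumours. Without B2, 83 genes were called with Mt1.

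The genes most like the pair over the 30 tumours were less like it than Mt1 and Mt2 were like each other, for which r was 0.975. The highest means of the correlations with Mt1 and Mt2 were those of Pdzk1ip1 (0.87), a small membrane protein, and Prss8 (0.869), the membrane protease prostasin. Tbc1d17, which encodes a Rab GTPase-activating protein, Smpd2, a neutral sphingomyelinase, Th1l, a subunit of the negative elongation factor, and Cyhr1 followed at 0.857, 0.857, 0.856 and 0.855. Rtkn reached 0.846, Klc3, a kinesin light chain, 0.836, Pck2, the mitochondrial phosphoenolpyruvate carboxykinase, 0.835, and Arrdc1, an arrestin-like adaptor, 0.832. The lowest means were those of 1190002N15Rik (-0.831), the co-chaperone Dnaja4 (-0.819), Fbxo22 (-0.797), a ubiquitin ligase subunit, the growth hormone receptor Ghr (-0.796) and the protein repair enzyme Pcmt1 (-0.771).

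These correlations run over tumours that share animals, letters and GC tilt, and are a description. Prss8 had a median of 4718 normalized counts in A tumours, 5394 in B tumours and 4036 in C tumours. All 10 of the most like genes were higher in B than in C, 7 of them past the test, and all 5 of the least like were lower, 3 past the test; the genes were chosen on the same tumours, so this is no separate result. The transcripts of 9 of the 10 could be matched to a GC content, and it was 51 to 63%, against a median of 49.9% over 13153 genes, while in the 5 least like genes it was 40.9 to 49.8%. Across genes, GC content and the correlation with Mt1 had a Spearman rho of 0.265, genes not being independent replicates.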

How the data were processed

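Per the labels, total RNA from RNeasy columns was made into TruSeq libraries. TopHat 1.3.3, HTSeq, DESeq 1.14.0 and mm9 are listed in the submitters' processing notes without a role. The authors deposited one table of normalized counts (a signal scaled per library by the authors), 23284 genes by 30 columns. Within each column, values were whole multiples of one step (100% of values, tolerance 0.01 reads), which gave back whole reads. No column name matched a single sample label, so columns were grouped only by their letter and digits, and no treatment was assigned.

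Values were analysed as log2(value + 1) for the 14539 genes with a mean of at least 10. Letters were compared on animal means (5 per letter) with limma 3.58.1 (trend, R 4.3.3) and Benjamini-Hochberg adjustment over all genes, with an exact permutation test beside it. Fits with Mt1 or Mt2 as covariate used animal means with the letter, or tumours with the animal as a block. The second digits are 0 and 1, where the plan had 1 and 2. A call is an adjusted p below 0.05. Alternatives were other pseudocounts (0.1, 10), no filter, TMM and upper-quartile scaling, animals left out, one tumour per animal, a random animal block, edgeR 4.0.16 on whole reads, no letter term and rank scores. The index run, the GC tilt and leaving out A1 and B1 together were added after seeing the data. GC content came from the longest GENCODE transcript and was matched by symbol for 13153 of the 14539 genes (90.5%). The fits were tested on simulated data. The members, lists and named genes (the 10 most and 5 least like genes, all metal handling genes, called members of other lists or the smallest p) were chosen with earlier results of these data known. Counting errors cover counting only. SDs after ± are over animal means, and SEs are those of the limma fits. P-values of the main letter tests, the fits between animals and the correlations take animals, as the column names give them, as the unit. Those of the sister-tumour fits measure the spread between tumours within animals. The test of the share of variance dealt single tumours within a letter. Named outside that rule, after their values were seen, were Grina, Hspa1a and Sftpb.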

Additional observations from a re-analysis of the deposited data

Results flagged for a closer look

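A sample far from the others of its letter was looked for in Mt1 to Mt4, among the 5 animal means and the 10 tumours of each letter. Of 22 such groups 6 had one. The rule flags about 1 in 20 groups by chance. The 6 cannot be set against that share, since animal means and tumours overlap and Mt1 and Mt2 move together. Among the A animals, A3 had the highest Mt1 and Mt2, and its gap to the next animal was 0.814 of the whole range for Mt1 and 0.791 for Mt2, on the log2 scale. Among the B tumours, B10 had the highest Mt2, with a gap of 0.511 of the range. Among the A tumours, A11 had the highest Mt3, at 68.01 normalized counts, with a gap of 0.502 of the range. In letter B, Mt4 was above 0 in B21 alone, at 1.11 normalized counts, so that the gap was 1.0 of the range for the tumours and 1.0 for the animal means, with B2 highest.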

How the results depend on the processing

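No paired analysis was possible because the column names match no sample and no label pairs animals across letters. B exceeded C in Mt1 and Mt2 under all alternatives run, by 0.324 to 0.688 log2 units in Mt1 and 0.482 to 0.957 in Mt2 with all animals, and the correlation of the pair passed under each alternative run for it, which were the pseudocounts, both scalings, letter means removed or A1 and B1 left out, and each animal left out. The Mt1 call was lost with second digit 0 alone (0.665, limma adjusted p = 0.0586), and both calls with the GC tilt (0.324 and 0.482). With the tilt, A fell below B past the test (-0.376 and -0.525), and the A minus C difference turned sign (-0.0519 and -0.0428), as it did with the index run (-0.207 and -0.384). With the run, A minus B was -1.24 in Mt2. Both differences of A with the run rest on B1, the only animal of another letter in the run of the A animals. The cause of the changes with the tilt was not tested. Counts of genes called moved as follows. Second digit 0 alone gave 0 between A and B by limma (2428 with unadjusted p below 0.05), and 1056 between B and C. The index run gave 148 between A and B, 774 between A and C and 1498 between B and C, and the tilt 4242 between A and C and 675 between B and C. In the covariate fits between animals, Mt1 gave 2 genes with a pseudocount of 10 or upper-quartile scaling, 71 without the letter and 0 with rank scores (2046 unadjusted), and Mt2 gave 172 without the letter, 0 with rank scores (1482 unadjusted), 0 with the tilt (1283 unadjusted) and 1 without A1 and B1. Between sister tumours, Mt1 and Mt2 gave 90 and 217 with the tilt and 0 and 0 without A1 and B1 (1665 and 1519 unadjusted).

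Leaving out 1 animal at a time gave A minus B differences of -0.486 to -0.289 in Mt1 and -0.68 to -0.376 in Mt2, and 292 to 3433 genes between A and B, moved by more than 1.5 times without any 1 of the A animals, B2, B3 or B4. It gave 1506 to 2868 genes between B and C, lowest without C1. Between animals it gave 1 to 83 genes with Mt1 and 1 to 3 with Mt2, and between sister tumours 431 to 915 with Mt1 and 442 to 1028 with Mt2. The share of variance between animals ran from 0.386 to 0.598 for Mt1 (permutation p 0.0131 to 0.11) and from 0.295 to 0.568 for Mt2 (permutation p 0.00691 to 0.15). edgeR on whole reads made the same calls for Mt1 and Mt2. Counting error was at most 1.89% for Mt1 and 3.16% for Mt2.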

Other observations

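Mt4 was recorded in letter C in 2 tumours of the 10, at 21.1 normalized counts in C11 and 264.6 in C21, which by their names come from different animals, while their sister tumours C10 and C20 had none. Mt1 in those pairs had 3737 normalized counts in C10 and 3509 in C11, and 3967 in C20 and 3244 in C21.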
